A study of Mus musculus with 8 samples.

Results

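The mevalonate and squalene enzymes were followed through the first postnatal week of the mouse heart. The group was set by name as 8 genes, Hmgcs1, Mvk, Pmvk, Mvd, Idi1, Fdps, Fdft1 and Sqle, all of which act on the route from acetyl units to squalene epoxide. Symbols were matched to the expression loci without regard to case, and where a symbol had several loci the one with the highest mean level was used. A locus was found for 7 of the 8 genes among 80155 loci, of which 39614 carried a gene symbol. Mvd, the decarboxylase that makes isopentenyl diphosphate, was not analysed here. RNA was sequenced from whole hearts of male Hsd:ICR(CD-1) mice on postnatal day 1 (P1, 4 hearts) and postnatal day 7 (P7, 4 hearts), with 1 library for each heart. Both groups were untreated outbred animals whose atrial appendages had been removed and whose hearts were flash frozen, and total RNA was depleted of ribosomal RNA before library preparation. The study compared P1, when the mouse heart can still regenerate, with P7, when this capacity is lost.

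Cholesterol is made from acetyl-CoA in a single branching chain of reactions. Hmgcs1 joins acetyl units in the cytosol on the way to mevalonate, Mvk, Pmvk and Mvd convert mevalonate to isopentenyl diphosphate, Idi1 isomerises that unit, Fdps links the units to farnesyl diphosphate, Fdft1 joins a pair of farnesyl units to squalene, and Sqle oxidises squalene on the way to lanosterol. Intermediates of the chain also feed protein prenylation, dolichol and ubiquinone, the last of which serves the respiratory chain of heart mitochondria. Transcription of the chain is controlled by SREBP2, the product of Srebf2, which is held in the endoplasmic reticulum by the sterol sensor Scap and the Insig proteins when membrane cholesterol is high and which binds sterol regulatory elements together with factors at CCAAT and GC boxes.

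Upstream sequences from RefSeq (GRCm38.p6 table) were available for 5 of the 8 genes, Hmgcs1, Mvk, Pmvk, Mvd and Idi1. The 250 bases before each start were searched on both strands for the sterol regulatory element core TCACNCCAC, the CCAAT box CCAAT and the GC box GGGCGG. These genes have 6 starts, 2 of them of Pmvk. The sterol core was present in 1.05% of all 32851 promoters of this length and in 1 of the 6, that of Hmgcs1, where it lay 137 to 129 bases before the start. CCAAT was present in 33.8% of all promoters and in 5 of the 6, and GGGCGG in 32.7% and in 4 of the 6. The second start of Pmvk held no CCAAT, and neither of its starts held GGGCGG. The window of this second start, chr3:89459321-89459570, lies inside the measured Pmvk locus. The 11 other cholesterol enzymes examined below have 13 starts, of which 10 held CCAAT, 12 held GGGCGG and 0 held TCACNCCAC. These matches are letters in a window and were not tested as binding sites. The stretches of Hmgcs1, which fell at P7, and of Mvk, which was not differentially expressed, are shown to compare their layout. Both lie on the plus strand of GRCm38, that of Hmgcs1 at chr13:119690101-119690350 and that of Mvk at chr5:114444060-114444268, and capitals mark TCACNCCAC and CCAAT on either strand (ATTGG on the minus strand).
Hmgcs1: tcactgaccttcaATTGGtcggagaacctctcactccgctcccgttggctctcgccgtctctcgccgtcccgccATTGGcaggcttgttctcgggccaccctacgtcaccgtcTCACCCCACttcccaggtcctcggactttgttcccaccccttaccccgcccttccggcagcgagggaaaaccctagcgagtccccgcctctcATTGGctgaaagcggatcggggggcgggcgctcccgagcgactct
Mvk: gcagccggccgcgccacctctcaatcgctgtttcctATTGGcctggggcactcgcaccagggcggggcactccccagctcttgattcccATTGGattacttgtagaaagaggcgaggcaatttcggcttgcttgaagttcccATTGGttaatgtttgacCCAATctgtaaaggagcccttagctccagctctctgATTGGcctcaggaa

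The Hmgcs1 stretch holds 3 CCAAT boxes beside the sterol core, and its last base lies 21 bases before the Hmgcs1 locus. The Mvk stretch is the whole gap of 209 bases between Mvk and Mmab, a neighbour read in the opposite direction whose product acts in vitamin B12 metabolism, and it holds 5 CCAAT boxes and no sterol core. For Idi1 the RefSeq start lies 105 bases inside the locus of the files, so its upstream window, with CCAAT boxes 45 to 41 and 14 to 10 bases before that start, overlaps the measured transcript and is not shown. For Pmvk the first RefSeq start lies 4577 bases before the locus, and the window of the second lies inside it. The bases directly before the measured Pmvk locus were therefore not searched.

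Levels are given in FPKM, fragments per kilobase of transcript scaled to the mapped fragments of the library, as deposited for each heart. The deposited files hold no read counts, so no counting error was computed and the spread between hearts is the only error. Between 20269 and 28662 loci reached 1 FPKM in a heart. Defining cardiomyocyte genes were abundant in every heart, with Myh6 at 2533 to 5502 FPKM. Alb, a liver transcript, stood at 40.3 and 23.7 FPKM in P1 replicates 1 and 3 and at 5.63 or less in the other hearts. Ucp1, a brown fat transcript, stood at 3.08 and 10.3 FPKM in P7 replicates 2 and 4 and at 0.147 or less in the other hearts. A locus was termed differentially expressed at a Benjamini-Hochberg adjusted p below 0.05, from limma on log2(FPKM + 1), together with stage means that differed at least 1.5-fold. All 7 genes entered this fit, which covered 43172 loci, 17960 of them with a gene symbol. Fold changes are differences of log2(FPKM + 1), P7 minus P1, with their standard error (SE), and understate changes of low genes.

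Of the 7 genes, 2 were differentially expressed and both were lower at P7, Idi1 and Hmgcs1. In either direction, 8.14% of the annotated loci tested were differentially expressed. Loci differentially expressed and lower at P7 made up 0.401% of the annotated loci tested (72 of 17960), and those that were higher made up 7.74% (1390). After median-ratio scaling of the hearts, this split became 659 lower (3.67%) and 1445 higher (8.05%), with Sqle lower beside Idi1 and Hmgcs1. Every P7 heart lay below every P1 heart for 3 of the 7 genes, Hmgcs1, Idi1 and Sqle, against 2.69% of annotated loci, and the opposite held for 0 of the 7, against 17.3% of annotated loci. The median log2 fold change of the 7 genes was -0.70, against 0.19 over all annotated loci. Median-ratio scaling moved the median over all annotated loci to 0.01 and that of the 7 genes to -0.94. Summed over the 7 genes, the level was 166, 137, 132 and 164 FPKM in the P1 hearts and 66.5, 63.9, 120 and 107 FPKM in the P7 hearts, so that the summed levels of the stages did not overlap. Fewer cells of a type and less RNA per cell cannot be told apart in whole hearts.

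**Figure D1:**
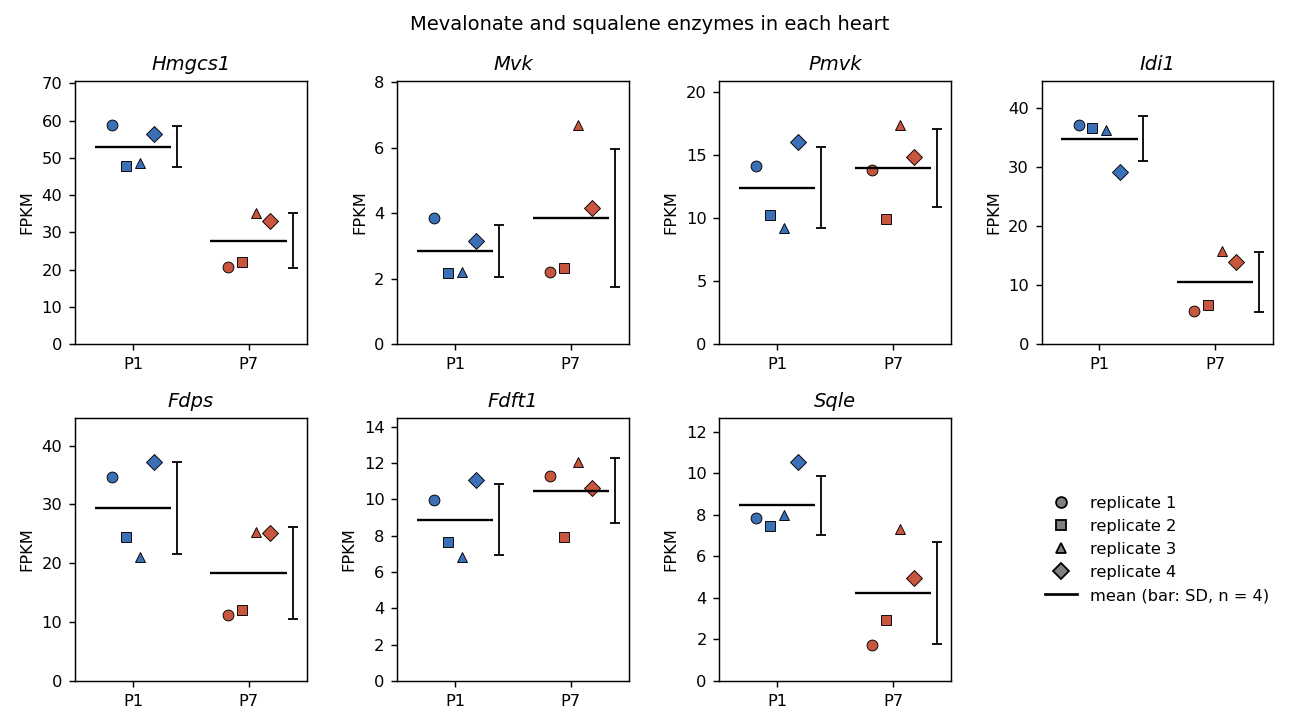
FPKM of the 7 measured genes in each of 4 P1 and 4 P7 hearts, 1 panel for each gene with its own axis from 0. Symbols mark replicate numbers, which are not stated to pair hearts across stages, horizontal lines the means and bars the SD. For Idi1, Hmgcs1 and Sqle the P7 hearts all lie below the P1 hearts, and the other 4 genes overlap.

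Hmgcs1, the cytosolic synthase that comes first of the 7 genes in the chain, had the highest mean of them at both stages. Its locus lies at chr13:119690372-119708121 and overlaps the antisense gene Gm48342. Its level was 58.9, 47.9, 48.6 and 56.5 FPKM in P1 replicates 1 to 4 and 20.7, 22.1, 35.2 and 33.2 FPKM in P7 replicates 1 to 4. The stages did not overlap, and P7 replicates 1 and 2 were the lowest hearts. The mean fell from 53.0 ± 5.52 to 27.8 ± 7.46 FPKM (SD, n = 4 each), 1.90-fold, with a log2 fold change of -0.94 (SE 0.21, limma adjusted p = 0.033). This call was lost with a correction for GC content (adjusted p = 0.135) and without P1 replicate 1, 2 or 3 or P7 replicate 1 or 2, with log2 fold changes of -1.06 to -0.81 over the fits that left out 1 heart.

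The kinases that phosphorylate mevalonate were not differentially expressed. Mvk, mevalonate kinase (chr5:114444269-114460591), had the lowest mean of the 7 genes at both stages, with 3.85, 2.18, 2.22 and 3.14 FPKM at P1 and 2.20, 2.33, 6.70 and 4.16 FPKM at P7. P7 replicates 1 and 2 lay within the P1 range and P7 replicates 3 and 4 above it. In P7 replicate 1, Sqle (1.73 FPKM) lay below Mvk. The log2 fold change of Mvk was 0.26 (SE 0.28, 95% interval -0.35 to 0.87, limma adjusted p = 0.585). Mmab, across the shared upstream gap, had a log2 fold change of 0.08 (SE 0.22, limma adjusted p = 0.835). Pmvk, phosphomevalonate kinase (chr3:89459118-89469013), was measured at 14.1, 10.2, 9.21 and 16.0 FPKM at P1 and at 13.8, 9.91, 17.4 and 14.9 FPKM at P7, and 3 of the 4 P7 values lay inside the P1 range. Its log2 fold change was 0.17 (SE 0.23, 95% interval -0.32 to 0.66, limma adjusted p = 0.66), and its sign turned with median-ratio scaling (-0.057).

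Idi1, the isomerase that turns isopentenyl diphosphate into dimethylallyl diphosphate, had the largest change of the 7 genes. Its locus, chr13:8885501-8892451, overlaps the gene Gm48574 on the opposite strand. There the level was 37.2, 36.7, 36.4 and 29.3 FPKM in the P1 hearts and 5.61, 6.69, 15.8 and 13.9 FPKM in the P7 hearts. The highest P7 heart lay well below the lowest P1 heart, and P7 replicates 1 and 2 were again lowest. The mean fell from 34.9 ± 3.75 to 10.5 ± 5.10 FPKM (SD, n = 4 each), 3.32-fold, with a log2 fold change of -1.75 (SE 0.29, limma adjusted p = 0.0106). The gene stayed differentially expressed with each heart left out in turn, with log2 fold changes of -1.97 to -1.52, and with the GC correction (-1.48, adjusted p = 0.0341). Without both P1 hearts that held Alb the log2 fold change was -1.67, with an adjusted p of 0.114.

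Fdps, which builds farnesyl diphosphate (chr3:89093592-89101967), stood at 34.6, 24.5, 21.1 and 37.3 FPKM at P1 and at 11.2, 12.1, 25.3 and 25.1 FPKM at P7. Its locus overlaps Gm43738, a protein-coding gene, and Gm22935, a small nuclear RNA gene, both on the same strand. P7 replicates 1 and 2 lay below all P1 hearts, whereas P7 replicates 3 and 4 lay inside the P1 range. The log2 fold change was -0.70 (SE 0.29, 95% interval -1.34 to -0.07, limma adjusted p = 0.227), short of the threshold. Fdft1, squalene synthase, had 9.96, 7.66, 6.81 and 11.1 FPKM at P1 and 11.3, 7.91, 12.1 and 10.6 FPKM at P7. Its log2 fold change was 0.22 (SE 0.21, 95% interval -0.22 to 0.67, limma adjusted p = 0.53). The Fdft1 locus is listed at chr14:63122442-63177793, the same span as a separate locus for Ctsb, a lysosomal protease on the opposite strand, which had a mean of 21.8 ± 6.76 FPKM at P1 and 35.6 ± 9.86 FPKM at P7 (SD, n = 4 each). Fragments of these overlapping genes may have been divided with error, and the level of Fdft1 is uncertain to that extent.

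Sqle, the squalene epoxidase that takes the first oxygen-dependent step towards sterols (chr15:59315077-59331192), had 7.83, 7.47, 7.96 and 10.6 FPKM at P1 and 1.73, 2.93, 7.31 and 4.95 FPKM at P7. All P7 hearts lay below all P1 hearts, P7 replicate 3 only just. The means were 8.46 ± 1.42 and 4.23 ± 2.45 FPKM (SD, n = 4 each), and the log2 fold change was -0.97 (SE 0.30, limma adjusted p = 0.0993). By the exact two-sided permutation test, the difference in means had p = 0.0286 (n = 4 each), the smallest value that 4 hearts against 4 can give, as it did for Hmgcs1 and Idi1. The symbol has a second locus of the same span with 0.882 to 1.60 FPKM in all hearts, which was left out. Summing both loci gave a log2 fold change of -0.80 (limma adjusted p = 0.0902).

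The order of the levels differed between the stages. In P1 it ran from Hmgcs1 through Idi1, Fdps, Pmvk, Fdft1 and Sqle to Mvk, and the ranges of neighbours did not overlap between Hmgcs1 and Idi1, between Fdps and Pmvk and between Sqle and Mvk. In P7 Idi1 stood behind Fdps and Pmvk, and the ranges of neighbours overlapped everywhere except between Fdft1 and Sqle. Ratios within a heart do not depend on a scaling factor for the heart, and those given here were chosen after the values were seen, so they carry no test. Idi1 stood at 2.63, 3.58, 3.95 and 1.83 times the level of Pmvk in the P1 hearts and at 0.407, 0.675, 0.905 and 0.937 times in the P7 hearts. Idi1 thus exceeded Pmvk in all P1 hearts and in none of the 4 P7 hearts. The ratio of Hmgcs1 to Pmvk was 4.17, 4.68, 5.28 and 3.52 in the P1 hearts and 1.50, 2.23, 2.02 and 2.23 in the P7 hearts. The ratio of Hmgcs1 to Mvk ran from 15.3 to 22.0 at P1 and from 5.26 to 9.47 at P7. The ratio of Sqle to Fdft1 was 0.786, 0.975, 1.17 and 0.955 in the P1 hearts and 0.153, 0.370, 0.606 and 0.467 in the P7 hearts. These pairs also differ in the GC content of their transcripts. The difference between the log2 fold changes of the pair went from -1.92 to -1.29 for Idi1 and Pmvk with a correction for GC content, from -1.11 to -0.50 for Hmgcs1 and Pmvk, from -1.20 to -0.62 for Hmgcs1 and Mvk and from -1.19 to -1.03 for Sqle and Fdft1.

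**Figure D2:**
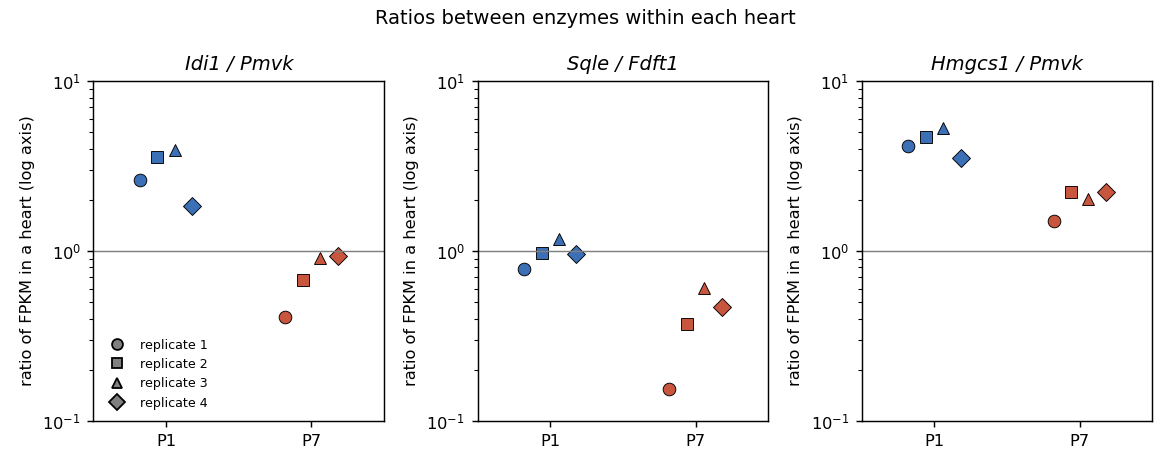
Ratio of FPKM between 2 enzymes within each heart on a log axis, for Idi1 to Pmvk, Sqle to Fdft1 and Hmgcs1 to Pmvk. Each symbol is 1 of 4 P1 or 4 P7 hearts and the grey line marks equal levels. In all 3 panels every P7 heart lies below every P1 heart.

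The chain was then followed beyond the 7 genes. All 11 other cholesterol enzymes were tested. Of these, 1 was differentially expressed and lower at P7 (Msmo1), against 0.401% of annotated loci, and 1 higher (Tm7sf2), against 7.74%. Log2 fold changes were negative for 8 and positive for 3, and the median was -0.36. Msmo1, a C4-methyl sterol oxidase listed under its older symbol Sc4mol, had 87.6, 70.2, 80.6 and 76.4 FPKM at P1 and 15.2, 26.3, 51.6 and 36.1 FPKM at P7. Its mean fell 2.44-fold, with a log2 fold change of -1.38 (SE 0.30, limma adjusted p = 0.0279). Msmo1 had no GC value and was not corrected for it. The call for Msmo1 was lost without P1 replicate 1, 2 or 3 or P7 replicate 1 or 2 (adjusted p of 0.0559 to 0.0774), without the P1 hearts that held Alb (adjusted p = 0.191) and without the P7 hearts that held Ucp1 (adjusted p = 0.0862). Tm7sf2, a sterol reductase, was read from a locus merged with Vps51 and Zfpl1, so its log2 fold change of 0.95 (SE 0.24, limma adjusted p = 0.046) cannot be assigned to 1 gene. It was lost in 7 of the 8 fits that left out 1 heart, all but that without P1 replicate 4, with adjusted p up to 0.151.

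Lss, which closes the sterol rings, and Cyp51, the lanosterol demethylase, had stages that did not overlap, with log2 fold changes of -0.73 (limma adjusted p = 0.0869) and -0.89 (adjusted p = 0.0786). Every P7 heart lay below every P1 heart for 3 of the 11 enzymes and above for 1, against 2.69% and 17.3% of annotated loci. With median-ratio scaling 6 of the 11 passed the threshold, 5 lower and 1 higher, against 3.67% and 8.05% of annotated loci. The log2 fold changes of the remaining enzymes that were not differentially expressed were -0.62 for Hsd17b7, -0.37 for Nsdhl, -0.36 for Sc5d, -0.25 for Acat2, -0.13 for Dhcr7, 0.31 for Ebp and 0.33 for Lbr, with adjusted p of 0.158 to 0.717.

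**Figure D3:**
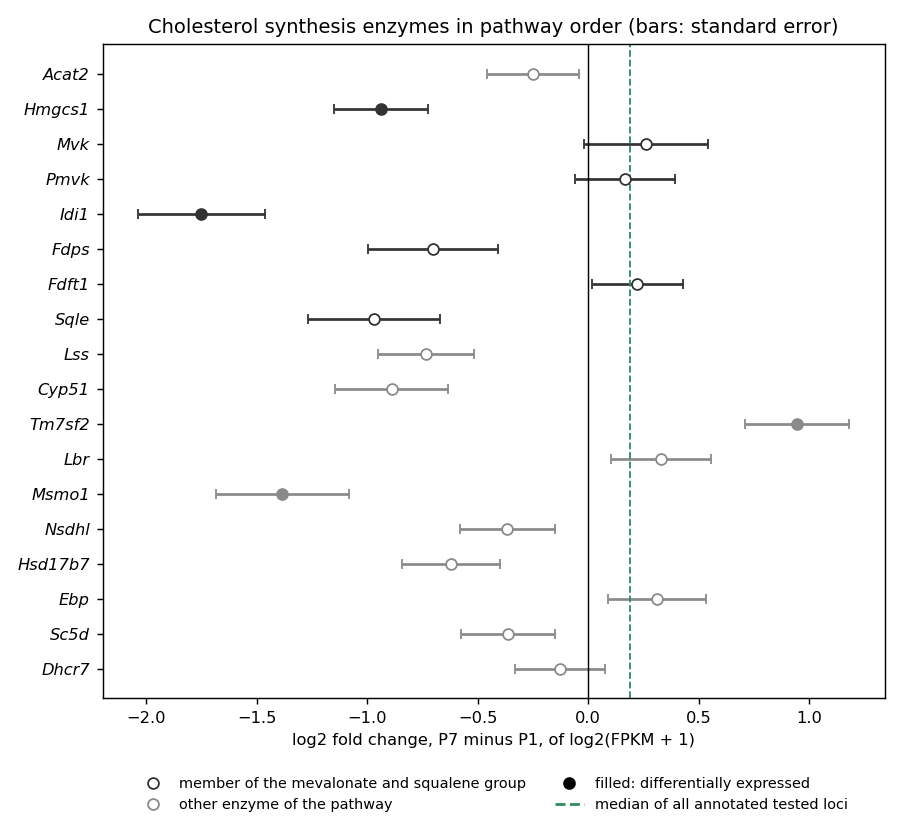
Log2 fold change of log2(FPKM + 1), P7 minus P1, for 18 enzymes in the order of the pathway, with the standard error as bars. Filled points are differentially expressed, and the dashed line is the median of all annotated loci tested (0.19). Idi1 (-1.75) and Msmo1 (-1.38) lie farthest to the left, and Mvk, Pmvk and Fdft1 lie near the dashed line.

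The P7 hearts differed among themselves along the whole chain. P7 replicates 1 and 2 were the lowest of the P7 hearts for 6 of the 7 genes, all but Fdft1, and for 9 of the 11 other enzymes, all but Tm7sf2 and Dhcr7. The same hearts were the lowest P7 hearts at 26.4% of all annotated loci tested. Relative to the P1 mean, Idi1 stood at 16.1% and 19.2% in P7 replicates 1 and 2 and at 45.2% and 40.0% in replicates 3 and 4. Sqle stood at 20.4% and 34.6% in the former hearts and at 86.5% and 58.6% in the latter. Proliferation genes moved with this order, since 5 of them (Mki67, Top2a, Ccnb1, Cdk1 and Aurkb) summed to 87.4 and 73.5 FPKM in P7 replicates 1 and 2, to 168 and 141 FPKM in replicates 3 and 4 and to 108 to 141 FPKM in the P1 hearts. None of these 5 genes was differentially expressed between the stages by limma (1 at an unadjusted p under 0.05, 0 by the exact permutation test, against 29.7% and 20% of annotated loci), and their part in the spread of the P7 hearts was not tested.

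**Figure D4:**
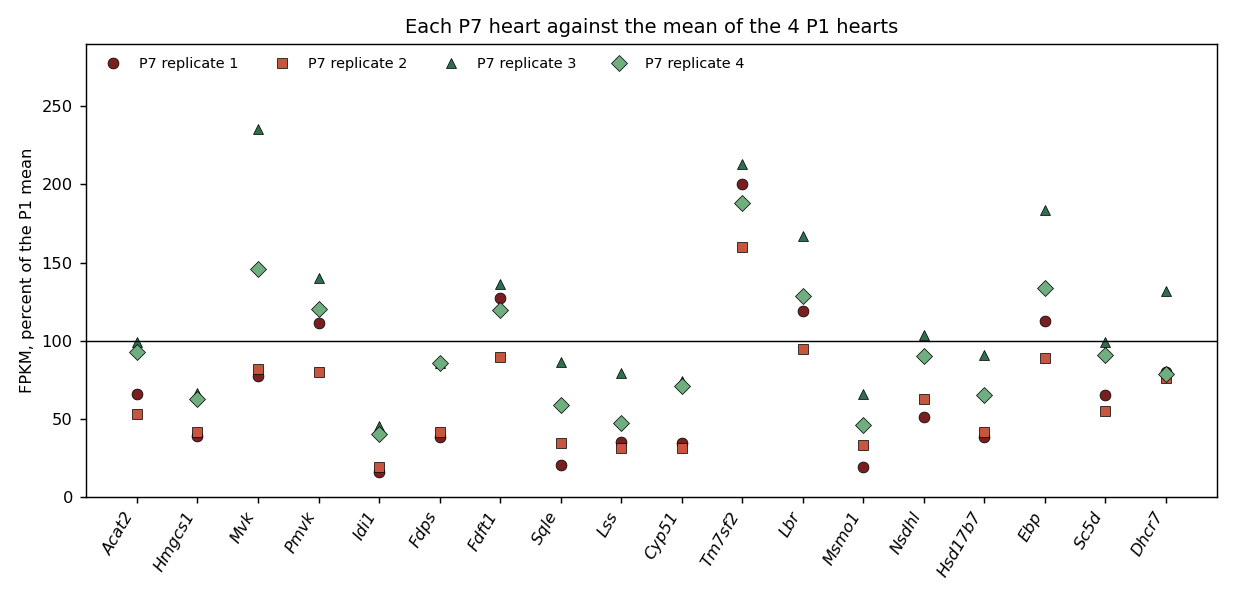
FPKM of 18 cholesterol synthesis enzymes in each P7 heart as a percentage of the mean of the 4 P1 hearts, in pathway order. Symbols and colours mark the P7 replicates and the line marks 100%. Replicates 1 and 2 lie lowest for most enzymes, for Idi1 at 16.1% and 19.2%, and all P7 hearts lie above the line for Tm7sf2.

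Fold changes in these libraries varied with the GC content of the transcripts. The median log2 fold change over annotated loci was -0.026 for transcripts below 45% GC and 0.62 for those of 55% GC or more. The longest transcripts of Idi1 and Hmgcs1 had 41.9% and 43.1% GC, that of Sqle 48.6%, those of Fdps and Fdft1 50.6% and 51.8%, and those of Mvk and Pmvk 56.3% and 57.0%. The genes with negative log2 fold changes were thus those of lower GC content. After each heart's trend with GC was subtracted, the log2 fold changes were -1.48 for Idi1, -0.88 for Sqle, -0.71 for Fdps, -0.69 for Hmgcs1, -0.19 for Pmvk, -0.074 for Mvk and 0.15 for Fdft1, and of these Idi1 was differentially expressed.

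The genes that control the chain were not differentially expressed in either direction (0 of 8 by limma, 4 at an unadjusted p under 0.05 and 1 by the exact permutation test), against 8.14%, 29.7% and 20% of annotated loci. Srebf2, which encodes the factor that drives it, had a log2 fold change of -0.18 (SE 0.23, limma adjusted p = 0.638). With the GC correction its value was -0.58 (adjusted p = 0.21). With GC correction and median-ratio scaling it was -0.80 (adjusted p = 0.0343), the only 1 of 22 alternative settings in which Srebf2 was differentially expressed. Insig1, both a brake on the pathway and one of its known targets, had a log2 fold change of -0.37 (SE 0.24, limma adjusted p = 0.413). The largest values were those of Srebf1, the factor of fatty acid synthesis, at 0.94 (SE 0.25, adjusted p = 0.0592), and Scap at 0.79 (SE 0.32, adjusted p = 0.214). Srebf1 was differentially expressed and higher at P7 in 5 of the 22 alternative settings, and Scap and Insig1 in 0. Srebf2 was named after its value was seen, and Insig1 was picked by the comparison of profiles given at the end.

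Genes of cholesterol uptake, storage and efflux had positive median fold changes. Of 9 uptake and storage genes, 2 rose, Lrp1, a lipoprotein receptor (log2 fold change 1.08, SE 0.21, limma adjusted p = 0.02), and Scarb1, the HDL receptor (1.14, SE 0.23, adjusted p = 0.023), and the median was 0.63. Of 6 LXR and efflux genes tested, 2 rose, Nr1h2, the sterol receptor LXR beta (1.63, SE 0.29, limma adjusted p = 0.015), and Apoe (1.25, SE 0.23, adjusted p = 0.0176), with a median of 0.72. All 4 of these calls were lost without P1 replicate 2 and without P7 replicate 1, and those of Lrp1 and Scarb1 also without P1 replicate 3 or P7 replicate 3, with adjusted p of 0.0502 to 0.0851. The GC correction left Scarb1 (adjusted p = 0.0312), not the other 3. Both counts exceed in share the 7.74% of annotated loci that rose, but no test of the lists was made. Some markers of other cell types rose as well, 2 of 5 of fibroblasts, 1 of 4 of endothelium, 1 of 4 of smooth muscle and pericytes (Pdgfrb) and 1 of 4 of brown fat (Cidea), while 0 of 6 cardiomyocyte, 0 of 4 macrophage and leukocyte, 0 of 6 red cell and 0 of 3 liver genes tested were differentially expressed by limma. At an unadjusted p under 0.05, 2, 2, 4 and 0 genes of these last 4 lists passed, and by the exact permutation test 1, 0, 0 and 0, against 29.7% and 20% of annotated loci. The fibroblast markers summed to 575 to 1076 FPKM at P1 and 925 to 1161 FPKM at P7, the endothelial markers to 58.6 to 110 and 91.1 to 143 FPKM, the smooth muscle and pericyte markers to 266 to 552 and 214 to 328 FPKM, and the brown fat markers to 8.30 to 16.2 and 20.6 to 39.3 FPKM. Acta2, the smooth muscle marker with the highest mean at each stage, had means of 281 and 148 FPKM, with a log2 fold change of -0.90 (limma adjusted p = 0.126), and did not overlap between the stages. Cidea made up most of the brown fat sum, and in P7 replicate 1 all of it, with Ucp1, Adipoq and Plin1 at 0. Ucp1 was also at 0 in P1 replicate 2. The part of these cell types in the results for the enzymes was not tested.

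Side branches were followed as well. None of the 14 genes that use isoprenoids for prenylation, dolichol and ubiquinone was differentially expressed by limma (5 at an unadjusted p under 0.05, 4 by the exact permutation test, against 29.7% and 20% of annotated loci), and their median was 0.07. The largest values were -0.85 for Pdss1, which makes the ubiquinone side chain (SE 0.23, limma adjusted p = 0.0601), and 0.59 for Rabggta, a subunit of the Rab prenyltransferase (SE 0.21, adjusted p = 0.161). Of 10 fatty acid genes under SREBP1 control, 1 was differentially expressed, against 8.14% of annotated loci. At an unadjusted p under 0.05, 4 passed, against 29.7%. Every P7 heart lay below every P1 heart for 2 of the 10 and above for 2, against 2.69% and 17.3%. The differentially expressed gene was Elovl6, a fatty acid elongase, with a log2 fold change of -0.75 (SE 0.19, limma adjusted p = 0.0468) from means of 1.75 and 0.645 FPKM. That call was lost in 7 of the 8 fits that left out 1 heart, all but that without P1 replicate 4, with adjusted p up to 0.135. It was also lost with the GC correction.

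Profiles over the 8 hearts were compared by the root mean square distance between standardised log2(FPKM + 1) values and the mean profile of the 7 genes, over 8686 loci with 1 symbol and a mean of at least 5 FPKM. The nearest genes outside the group were Atad2 (distance 0.162), Insig1 (0.164), Tipin (0.206), Tmem97 (0.211) and Rrm2 (0.245). The 7 genes themselves lay farther from this mean, at 0.304 for Fdps to 0.977 for Fdft1, so that it describes few of them closely. Insig1 and Tmem97 are sterol-regulated genes, and Atad2, Tipin and Rrm2 are known from DNA replication and proliferating cells. These 5 genes had log2 fold changes of -0.37 to -0.20, and none of the 5 was differentially expressed by limma, with adjusted p of 0.41 to 0.652.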

How the data were processed

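RNA-seq of 4 P1 and 4 P7 mouse hearts was analysed. Per the labels and the methods of the study, total RNA was ribodepleted, prepared with the ScriptSeq v2 kit, sequenced in paired ends and aligned to GRCm38 with Ensembl annotation. The aligner and counter are not given in the sources used here. The authors deposited FPKM per locus for each heart, with no counts, and read totals stated by the study were not used here. Loci that reached 1 FPKM in any heart were tested with limma 3.58.1 (R 4.3.3, lmFit and eBayes with trend) on log2(FPKM + 1), and p-values were adjusted over all 43172 loci. Differential expression required an adjusted p below 0.05 and a ratio of at least 1.5. Single genes were also compared by an exact two-sided permutation test. The replicates are separate animals. On simulated data with 200 changed loci among 43172, 24 were recovered at a 2-fold and 190 at a 4-fold change, with 1 and 9 false calls. The changed loci were annotated and not low, and were a smaller share than the 8.14% of annotated loci differentially expressed in the hearts. These counts therefore do not give the sensitivity of the fit to the hearts, or that for low genes.

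The genes and gene lists were chosen with earlier results of these data known. Named genes were the 8 enzymes, the other cholesterol enzymes tested, the differentially expressed genes of each further list (or its 2 largest changes) and the 5 nearest profiles. Alternatives covered the pseudocount, filters, scaling, weights, a block for replicate number, each heart left out and summed loci. GC correction, which used the longest GENCODE transcript, and leaving out hearts with Alb or Ucp1 were added after the data were seen. GC values were found for 85.9% of annotated loci tested, without Msmo1. Promoters came from RefSeq, by symbol. Protein measurements of the study were not used here. Some genes of the pathway are not reported here.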

Additional observations from a re-analysis of the deposited data

Results flagged for a closer look

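For the named genes and the summed levels of the enzymes, 64 groups of 4 hearts were examined for a heart far from the other 3, by its gap to the closest of them divided by the range of the group (gap share). Chance gives about 1 such heart in 20 groups, 3.2 in all, and 4 were found. Idi1 was low in P1 replicate 4 (gap share 0.896, 29.3 FPKM against 36.4 to 37.2). Sqle was high in the same heart (gap share 0.841, 10.6 FPKM against 7.47 to 7.96). Dhcr7, the last reductase of one arm of the pathway, was high in P7 replicate 3 (gap share 0.935, 6.87 FPKM against 3.96 to 4.15). Mmab, the neighbour of Mvk, was high in the same heart (gap share 0.857, 12.6 FPKM against 6.48 to 7.35).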

How the results depend on the processing

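Over 22 alternatives, Hmgcs1, Idi1, Fdps and Sqle had negative log2 fold changes in all 22, Idi1 was differentially expressed in 21 and Hmgcs1 in 11. Differential expression was found for 1 of the 7 genes without a filter, with the replicate block, with GC correction, with GC correction and the block, and without the P7 hearts with Ucp1, for 0 without the P1 hearts with Alb, and for 4 with quantile normalization. Leaving out 1 heart gave 1 to 2 genes, 0 to 2 other cholesterol enzymes and 167 to 2835 annotated loci (2, 2 and 1462 as reported), and every heart but P7 replicate 2 moved the last count by over 1.5 times. Of the other cholesterol enzymes, 0 passed without a filter and without the hearts with Alb or with Ucp1, 1 with the replicate block, with GC correction and with both (Msmo1, which had no GC value, so that 0 of the 10 enzymes that were corrected passed by limma, 4 at an unadjusted p under 0.05), 4 with the filter on every heart and 6 with median-ratio scaling or quantile normalization. Of 48 genes in 6 related lists, 5 were differentially expressed, 0 to 12 with 1 heart left out, 3 without a filter, 10 with the filter on every heart, 9 with median-ratio scaling, 8 with quantile normalization, 13 with sample weights, 1 with GC correction, 2 with GC correction and the block and 0 without the hearts with Alb or with Ucp1. Annotated loci passing numbered 620 without a filter, 2573 with the filter on every heart, 2951 with sample weights, 406 with GC correction, 380 with GC correction and the block, 857 with GC correction and median-ratio scaling, 37 without the hearts with Alb and 337 without those with Ucp1. Quantile normalization gave 1377 higher and 595 lower loci. The fits with hearts left out also held fewer hearts, and the causes of these differences were not tested.

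Signs turned for Mvk with GC correction, alone or with the block (-0.074), and with GC correction and median-ratio scaling (-0.26). They turned for Pmvk with median-ratio scaling (-0.057), quantile normalization (-0.092), GC correction, alone or with the block (-0.19), and GC correction with median-ratio scaling (-0.42). They turned for Fdft1 with quantile normalization (-0.040) and GC correction with median-ratio scaling (-0.068), and for Dhcr7 without the hearts with Ucp1 (0.045). They turned for Mmab with median-ratio scaling (-0.14), quantile normalization (-0.18), GC correction, alone or with the block (-0.13), GC correction with median-ratio scaling (-0.35), without P7 replicate 3 (-0.11, with 0.17 the highest value with 1 heart left out) and without the hearts with Alb (-0.054). All 5 genes were short of the threshold in these fits.

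P1 and P7 hearts share replicate numbers, and the labels give no other link between them. Correlations of same-numbered deviations were -0.10 to 0.12, and 1 of 4 P1 hearts was closest to its own number. Whether same-numbered hearts shared a litter or a batch is not stated and was not tested. The replicate block left 1052 annotated loci, Idi1 (adjusted p = 0.00398) and not Hmgcs1 (0.053). The precision is limited by 4 hearts a stage.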
